A study of Mus musculus with 4 samples.

Results

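The circular RNAs (circRNAs) of Cemip were examined in chondrocytes cultured from mouse articular cartilage, the cells that build and renew this tissue. A circRNA was counted as a Cemip circle when both ends of its back-splice junction lay inside the RefSeq span of the gene, with a tolerance of 1 bp. This gave 61 circles of 40909 circRNAs in the whole series. The IL-1β group comprised 2 libraries from cells given recombinant human interleukin-1β at 10 ng/ml for 24 h, and the control group comprised 2 libraries from the same cell type whose source label names no cytokine. All cells were grown in medium with 10% serum and used at passage 1 to 3. The labels give no genotype, strain, sex or age of the animals. Nothing in the labels ties the 2 libraries of a group to different cultures or animals, so the spread between them, and every p-value below, may be technical only.

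Cemip encodes a hyaluronan-binding protein that is needed for the depolymerisation of hyaluronan outside the classical hyaluronidases. Hyaluronan is the long sugar polymer that anchors aggrecan in cartilage and makes synovial fluid viscous, and its breakdown into short chains accompanies arthritis. A circRNA forms when a splice donor joins a splice acceptor that lies upstream of it in the same transcript, which leaves a closed loop. A single gene can give many circles, because the same donor or acceptor can take part in several such joints. Reads across the back-splice junction measure the circles, not the linear messenger RNA or the protein, and linear Cemip expression was not analysed here.

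The libraries held 895774 and 980542 junction reads with IL-1β against 1198010 and 1203855 in control. Cemip supplied 5856 of these reads. It ranked 114 of 6929 host genes by junction reads, which are not scaled by gene length, and 8 by number of circles. Of the markers looked up as circRNA hosts, 4 of 14 chondrocyte genes gave any junction read. Sox5 and Sox6 supplied nearly all of those reads, and Col2a1, Acan and Sox9 were among the 10 markers with 0. The summed chondrocyte markers stood at 265 and 320 CPM with IL-1β and at 402 and 239 CPM in control. CPM denotes normalised junction reads, that is, reads divided by the library total after correction with TMM factors, which adjust for differences in composition between libraries. Fibroblast markers (4 of 8 read) summed to 87.3 and 65.7 CPM against 140 and 206 CPM, osteoblast markers (1 of 5, Runx2) to 367 and 364 against 267 and 438, and macrophage markers (1 of 6, Mrc1) to at most 12.5 CPM in any library. The single endothelial marker read, of 4, had reads in IL-1β 1 alone. A gene without junction reads may still be expressed as messenger RNA, so these counts are no test of cell identity, and the part of other cell types in the Cemip values was not tested.

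Cemip lies on chromosome 7 from 83932857 to 84086693 in GRCm38.p6, the assembly behind the mm10 build named in the submitters' processing notes, and is 153837 bp long. All 61 circles were on the minus strand, the strand of Cemip in RefSeq. No circle crossed a boundary of the gene. The noncoding gene Gm30440 overlaps Cemip on the plus strand, from 83970233 to 84024735, and 26 of the circles also lie inside it. The libraries were made to keep strand, and those 26 circles stayed assigned to Cemip. Whether an end lies at an exon border is not stated here, since the annotation used gives gene spans only.

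The circles were gathered in the downstream part of the gene. The first 80.7 kb of Cemip, 52.5% of its length, held 3 circles with 8 reads in all: circRNA.35752 with 3 reads in control 1, circRNA.35753 with 2 in IL-1β 2 and circRNA.35754 with 3 in IL-1β 1. The other 58 circles carried 5848 reads. The boundary at 80.7 kb was set from these same circles, at the most upstream end used by at least 3 of them. The low count before it is therefore partly fixed by that choice. The distance between the ends of a junction ran from 232 to 61416 bp with a median of 11918 bp, beside a median of 10570 bp over all circRNAs of the series. The shortest circle, circRNA.35694, lay near the downstream end of the gene, with its upstream end 1031 bp from it. It had 31 reads in IL-1β 2 and 14 in control 2 and 0 in the other 2 libraries.

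**Figure D1:**
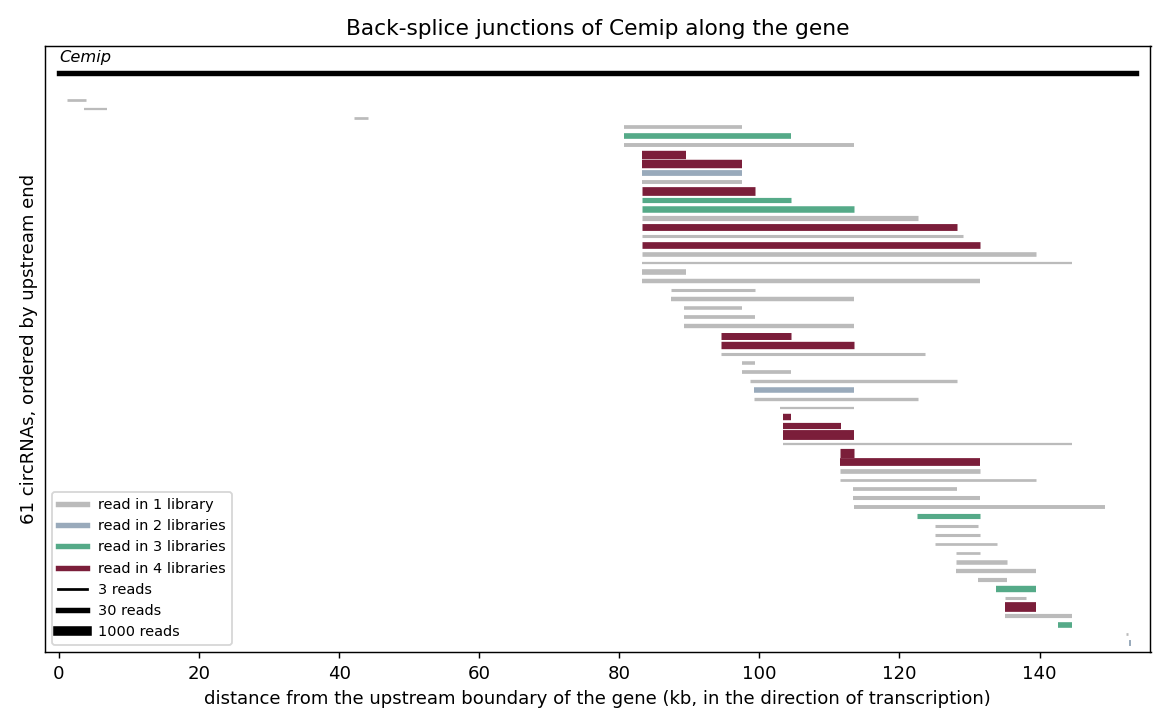
Each line is a Cemip circRNA drawn between its junction ends, with distance in kb from the upstream boundary of the gene on the x axis and circles stacked on the y axis in order of their upstream end. Line width grows with the logarithm of the reads and colour gives the number of libraries; 3 thin lines lie in the first 80.7 kb and the other 58 downstream of it.

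A small number of ends was used again and again. The 61 circles were built from 26 upstream ends and 26 downstream ends, where upstream and downstream follow the direction of transcription. In 41 circles both ends also occurred in other Cemip circles, in 14 a single end did, and in 6 neither did. The upstream end at 84003421, 83.3 kb into the gene, took part in 13 circles and 1622 reads, 27.7% of Cemip reads. The downstream end at 83973173 took part in 9 circles and 2290 reads, 39.1% of Cemip reads. Of 13 circles read in all 4 libraries, 12 shared both ends with other circles. Of the 39 circles read in a single library, 25 did, 9 shared a single end and 5 shared none.

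Most circles were rare, and the common ones held nearly all reads. The 13 circles read in every library made up 21.3% of the circles and 88.4% of the reads, beside 16.8% and 85.0% over all circRNAs of the series. The 39 circles read in 1 library made up 63.9% of the circles and 5.21% of the reads, beside 58.6% and 5.23% in the series. Control 1 held 16 of these 39 circles, with 163 reads, IL-1β 2 held 9 with 55, IL-1β 1 held 8 with 51 and control 2 held 6 with 36. Over the whole series control 1 also had the most circRNAs read, 20662, beside 19317 in IL-1β 2, 17649 in IL-1β 1 and 17960 in control 2. The split of single-library circRNAs by library was not counted over the series. At 3 reads, a count of 0 allowed a level of up to 3.30 CPM in IL-1β 1, 3.07 in IL-1β 2, 2.57 in control 1 and 2.46 in control 2, which covers counting error only because PCR copies of a molecule are not independent.

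The first comparison asked whether IL-1β altered the circular output of Cemip as a whole. Summed over the 61 circles, Cemip had 1189 and 1346 junction reads with IL-1β against 1774 and 1547 in control. These correspond to 1297 and 1360 CPM with IL-1β against 1483 and 1325 CPM in control. The groups overlapped, since IL-1β 2 lay above control 2. The mean was 1329 ± 44.7 CPM with IL-1β against 1404 ± 111 CPM in control (SD, n = 2 each). The log2 change was -0.08 ± 0.18 (SE), and the summed output did not pass edgeR's quasi-likelihood test (adjusted p = 1 over 4878 hosts with at least 20 reads). None of those hosts passed an adjusted p under 0.05 (0%), and 4.55% had an unadjusted p under 0.05, which Cemip did not. The 95% interval of the change ran from -0.50 to 0.34 on the log2 scale, that is, from 0.707 to 1.27 times the control level. The sign of this small change was not stable: without control 1, the library with the highest level, it was 0.04. In the authors' depth-scaled unit, SRPBM, Cemip summed to 99.7 and 100.3 with IL-1β. In control 1 and control 2 it summed to 150.4 and 96.0, so on that scale too only control 1 stood above the others. This was not particular to Cemip. SRPBM summed over all circRNAs was also highest in control 1, at 101537, beside 75093 and 73067 with IL-1β and 74734 in control 2.

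**Figure D2:**
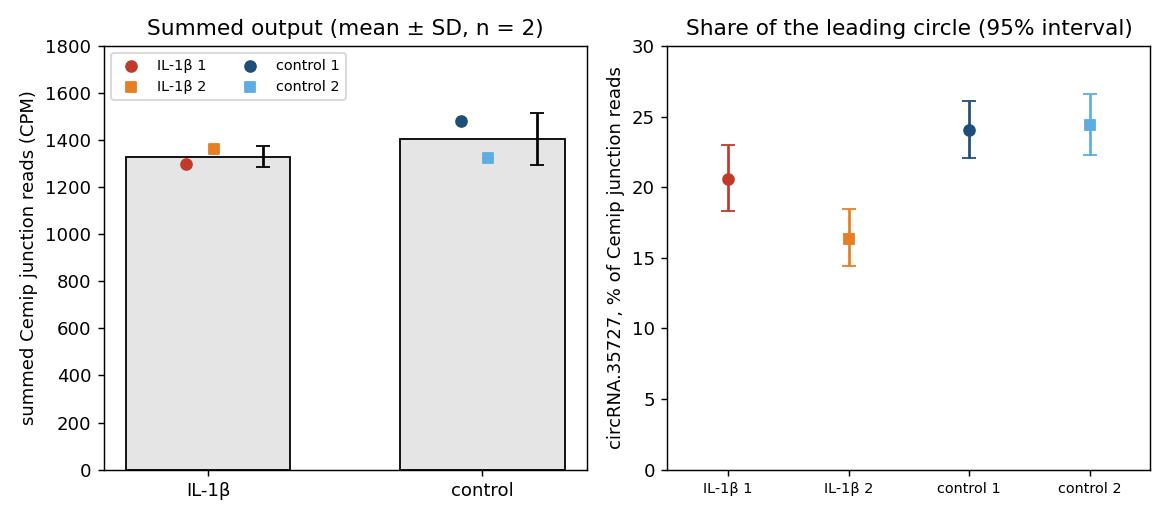
Left, summed Cemip junction reads in CPM on a linear axis from 0, with bars for the mean, error bars for the SD (n = 2) and points for libraries. The groups overlap, and all libraries lie between 1297 and 1483 CPM. Right, circRNA.35727 as a percentage of Cemip junction reads in each library with its exact 95% binomial interval, 20.6% and 16.3% with IL-1β against 24.1% and 24.4% in control.

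In CPM the summed output varied little between libraries, while in SRPBM control 1 stood well above the others, at 150.4, as it did over all circRNAs. The coefficient of variation of the CPM over the 4 libraries was 5.98%. Of 239 hosts with total reads within 2-fold of Cemip, Cemip itself included, 17 had a lower value and the median was 14.2%. The hosts whose centred log2 CPM lay closest to that of Cemip over the 4 libraries, among 2207 with at least 200 reads, were Hsdl2, a gene of the short-chain dehydrogenase family, Cdh2, which encodes N-cadherin, and Nf2, which encodes merlin. Their Euclidean distances to Cemip were 0.036, 0.050 and 0.051, beside a median of 0.63 over all hosts compared. In all 3 control 1 was the highest library, as it was for Cemip. Both this and the small distances follow from choosing the hosts by their likeness to Cemip.

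The next comparison took the circles one by one. Of the 61, 24 had at least 20 reads over the libraries and were tested, and these held 5609 reads. The other 37 held 247 reads together and were not tested. None of the 24 passed the quasi-likelihood test of edgeR (adjusted p under 0.05), beside 0.0196% of 15333 tested circRNAs. None had an unadjusted p under 0.05 either (3.44% of tested circRNAs did), and DESeq2 also called 0. In 4 of the 24 both IL-1β libraries lay below both controls in CPM and in 1 both lay above, and 19 overlapped. Over all tested circRNAs 17.2% lay below and 16.4% above in the same sense, so neither count stood out from the background.

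The 7 circles with at least 200 reads carried 78.5% of Cemip reads. The leading circle, circRNA.35727 (83973173 to 83983266, 10094 bp), had 245 and 220 reads with IL-1β against 427 and 377 in control. Both IL-1β libraries lay below both controls. Its level was 247 ± 31.0 CPM with IL-1β against 337 ± 40.2 CPM in control (SD, n = 2 each), a log2 change of -0.45 ± 0.27 (SE) that did not pass edgeR's test (adjusted p = 0.886). The 95% interval of this change ran from -1.10 to 0.21. SRPBM rescales the same counts, and on that scale both IL-1β libraries also lay below both controls, at 20.5 and 16.4 beside 36.2 and 23.4. The log2 change with that depth as the scaling was -0.69, where the median of all tested circRNAs was itself -0.28.

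The circle next in reads, circRNA.35701 (83947148 to 83951618, 4471 bp), had 244 and 265 reads with IL-1β against 277 and 355 in control. In CPM the IL-1β libraries, at 268 and 272, lay between the controls at 237 and 291. Its log2 change was 0.03 ± 0.27 (adjusted p = 1 in edgeR) and became -0.18 with the depth implied by SRPBM as the scaling, where both IL-1β libraries (20.5 and 19.7 SRPBM) lay below both controls (23.5 and 22.0). That scaling moved the median change of all tested circRNAs from -0.05 to -0.28. Together circRNA.35727 and circRNA.35701 held 41.2% of Cemip reads.

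The short circle circRNA.35726 (83973173 to 83975215, 2043 bp) had 182 and 184 reads with IL-1β against 185 and 174 in control. With the smaller IL-1β libraries taken into account, this was 200.05 and 189 CPM with IL-1β against 158 and 142 CPM in control, so both IL-1β libraries lay above both controls on this scale. In SRPBM the groups overlapped, at 15.3 and 13.7 with IL-1β, 15.7 in control 1 and 10.8 in control 2, and the log2 change with that depth as the scaling was 0.13. In CPM the group levels were 194 ± 8.10 and 150 ± 11.3 CPM (SD, n = 2 each). The log2 change of 0.37 ± 0.29 did not pass edgeR's test (adjusted p = 0.928), with a 95% interval from -0.33 to 1.07.

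A trio of circles shared the upstream end at 84003421 and overlapped between groups. The circle circRNA.35744 (83987338 to 84003421) had 103 and 107 reads with IL-1β against 153 and 124 in control, which is 111 ± 2.51 and 116 ± 20.8 CPM. For circRNA.35748 (83989133 to 84003421) the reads were 75 and 88 against 130 and 101, or 86.3 ± 5.48 and 97.0 ± 20.2 CPM. For circRNA.35751 (83997222 to 84003421) they were 59 and 97 against 120 and 88, or 82.1 ± 24.4 and 87.4 ± 21.7 CPM (SD, n = 2 each). The log2 changes of these 3 were -0.06 ± 0.34, -0.17 ± 0.38 and -0.09 ± 0.43, and each had an adjusted p of 1 in edgeR. Without control 1 all 3 changed sign, to 0.11, 0.03 and 0.16, and circRNA.35751 also did so without IL-1β 1, to 0.17. The last of the 7, circRNA.35716 (83955221 to 83975215, 19995 bp), had 69 and 45 reads with IL-1β against 64 and 39 in control. Its libraries also overlapped, at 60.98 ± 21.0 and 43.4 ± 16.2 CPM, with a log2 change of 0.49 ± 0.57 (adjusted p = 1 in edgeR). This change ran from 0.07 without IL-1β 1 to 0.90 without control 1.

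**Figure D3:**
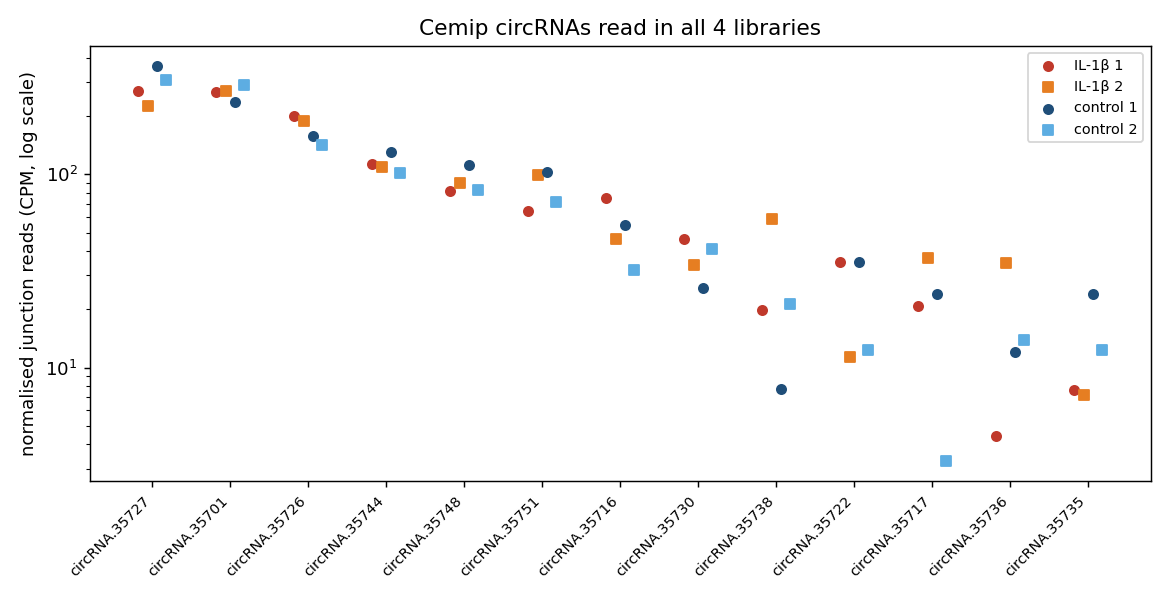
Normalised junction reads (CPM, log axis) of the 13 Cemip circRNAs read in every library, ordered by total reads, with a point for each library. In circRNA.35727 and circRNA.35735 both IL-1β points lie below both control points, in circRNA.35726 both lie above in CPM but not in SRPBM, and the other 10 overlap in CPM.

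The remaining 6 circles read in every library held between 57 and 155 reads each, and their libraries differed widely. For circRNA.35735 (83975040 to 83983266) the reads were 7 and 7 with IL-1β against 28 and 15 in control. Both IL-1β libraries lay below both controls. Both circRNA.35735 and circRNA.35736 (83982192 to 83983266) share their upstream end with circRNA.35727. For circRNA.35738 (83982192 to 83992197) they were 18 and 57 with IL-1β against 9 and 26. In circRNA.35736 IL-1β 1 had 4 reads and IL-1β 2 had 34, so the spread inside the group was wider than the distance to the controls at 14 and 17, and its mean was higher with IL-1β, at 19.6 against 13.0 CPM. For circRNA.35730 (83973173 to 83992197) the reads were 42 and 33 with IL-1β and 30 and 50 in control, and for circRNA.35722 (83958509 to 84003421) they were 32 and 11 and 41 and 15. The longest of them, circRNA.35717 at 48201 bp, had 19 and 36 reads with IL-1β against 28 and 4 in control. Each of these 6 circles had an adjusted p of at least 0.886 in edgeR.

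A single Cemip circle had reads in both libraries of a group and none in the other group. The share of all circRNAs of the series with this pattern was not counted, so whether it stands out in Cemip cannot be told. Circles read in exactly 2 libraries, whichever these were, made up 4.92% of Cemip circles and 14.9% of all circRNAs. The Cemip circle was circRNA.35729 (83973173 to 83987459), with 18 and 14 reads in control and none under IL-1β. Set against 3 reads in each IL-1β library, its control mean of 13.4 CPM was 4.22-fold higher. This ratio takes the control reads as exact, so it is no lower bound on the difference. It did not pass edgeR's test (adjusted p = 0.886). Circles with a like number of reads were often missing from 1 library of a group: circRNA.35750 had 34 reads in control 1 and circRNA.35725 had 24, and both had 0 in control 2. The circle circRNA.35702 had 0 and 11 reads with IL-1β against 22 and 35 in control.

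Because the summed output overlapped while circRNA.35727 did not, its share of Cemip reads was compared. The circle was taken up after its CPM values were seen, and the summed CPM differed little between libraries. Its share therefore largely restates those values and is no independent support for them. It made up 20.6% and 16.3% of Cemip reads with IL-1β against 24.1% and 24.4% in control. The exact 95% binomial intervals were 18.3% to 23.0% and 14.4% to 18.4% with IL-1β, and 22.1% to 26.1% and 22.2% to 26.6% in control, so the interval of IL-1β 1 met those of both controls and that of IL-1β 2 met neither. The mean share was 18.5% ± 3.01 with IL-1β against 24.2% ± 0.212 in control (SD, n = 2 each), a difference of -5.74 percentage points. The two-sided exact permutation p was 0.333, which is the smallest that 2 libraries against 2 can give, so this comparison cannot pass 0.05. The difference lay between -7.88 and -3.61 points with each library left out in turn.

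The circles circRNA.35726 and circRNA.35727 use the same downstream end and differ in the upstream end to which it is joined. This pair was set side by side after its values were seen. For each read of circRNA.35727 there were 0.743 and 0.836 reads of circRNA.35726 with IL-1β against 0.433 and 0.462 in control. The mean ratio was 0.790 ± 0.066 with IL-1β against 0.447 ± 0.020 in control (SD, n = 2 each), with the same smallest exact permutation p of 0.333. A ratio within a library does not depend on depth. The pair was chosen after circRNA.35727 was seen lower and circRNA.35726 higher with IL-1β in CPM. The separated ratios are therefore no independent support, and they do not say which circle, if either, differed.

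Cemip reads were also summed by junction end, which largely counts the same circles again: circRNA.35727 held 90.8% of the reads at its upstream end and circRNA.35726 held 75.4% at its own. The end shares are therefore no independent support for the values above. Of the 12 ends with at least 200 reads, 5 were upstream and 7 downstream. The upstream end at 83983266, that of circRNA.35727, took 21.5% and 19.4% of Cemip reads with IL-1β against 26.6% and 26.4% in control. The upstream end at 83975215, that of circRNA.35726, took 21.1% and 18.2% with IL-1β against 14.2% and 13.8% in control. At both ends the groups did not overlap, the former lower and the latter higher with IL-1β, and at 83992197 the IL-1β shares of 5.05% and 6.98% lay above the 2.20% and 4.91% of the controls. The shared downstream end at 83973173 took 40.1% and 35.1% with IL-1β against 38.1% and 42.9% in control, which overlapped. So did the other 6 downstream ends and the remaining 2 upstream ends. Over the junction ends with at least 200 reads in all hosts that have several of them on a side, 19.5% lay above and 18.1% below in this sense, beside 2 and 1 of 12 in Cemip. The two-sided exact permutation p of the 12 ends ran from 0.333 upward, and these ends share circles with each other.

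**Figure D4:**
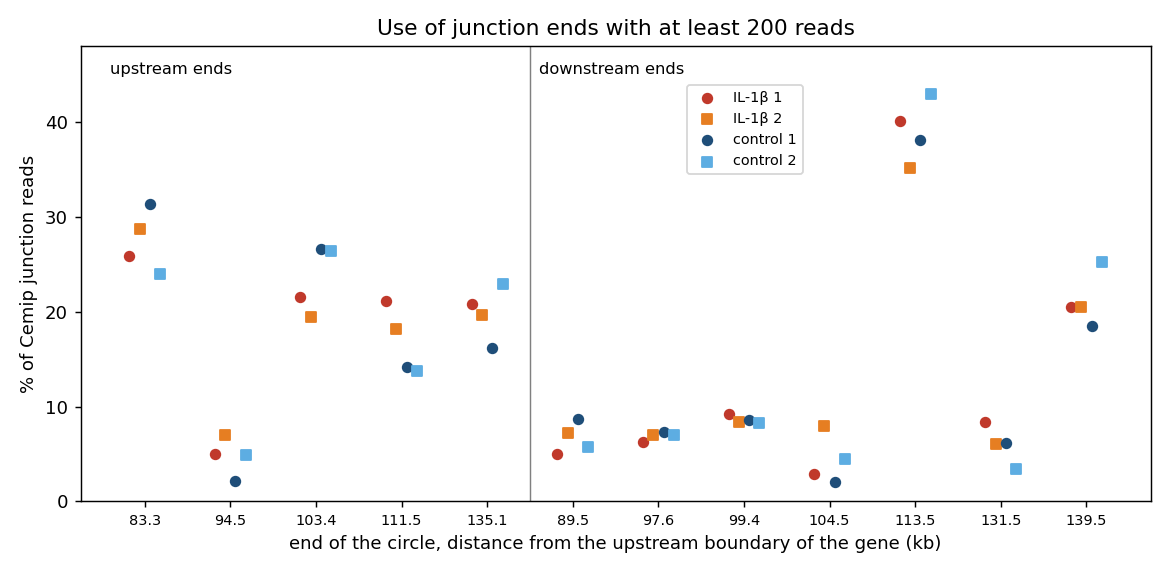
Percentage of Cemip junction reads (linear axis from 0) that use each junction end with at least 200 reads, with 5 upstream ends left and 7 downstream ends right of the line, each labelled by its distance in kb from the upstream boundary of the gene. Points are libraries; the ends at 103.4 and 111.5 kb are those of circRNA.35727 and circRNA.35726, with the IL-1β points below the controls at the former and above them at the latter.

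Some circles differed from a more frequent Cemip circle by 4 nt only. There were 4 such pairs, with the shift at the end 83955221, 83989123 or 84003421. In circRNA.35710 the downstream end was moved by 4 nt against circRNA.35716, and its 16 reads were all in IL-1β 2. In circRNA.35750 the upstream end was moved by 4 nt against circRNA.35751, and its 34 reads were all in control 1. Both ends were moved by 4 nt in circRNA.35711 against circRNA.35717, with 13 reads in control 1. The circle circRNA.35745, with 8 reads in IL-1β 1, stood 4 nt from circRNA.35746, which had 12 reads in that library and 28 in control 1. Each of the shifted circles was thus read in a single library. Summed with its neighbour, circRNA.35751 had 59 and 97 reads with IL-1β against 154 and 88 in control, and its log2 change went from -0.09 to -0.31. For circRNA.35716 the sum moved the change from 0.49 to 0.67, and neither passed edgeR's test.

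The other genes of hyaluronan metabolism were read as circRNA hosts too. Of 48 genes on the list, 17 gave any junction read and 10 reached 20 reads. None of the 10 passed edgeR's test (0% of all tested hosts did), and none had an unadjusted p under 0.05. Of these 10, 7 had a log2 change above 0 and 3 below, beside 47.9% of all tested hosts above 0. In 2 of the 10 both IL-1β libraries lay above both controls, beside 16.9% of tested hosts, and in 0 both lay below, beside 18.9%. The median change of the 10 was 0.46, beside -0.03 over all tested hosts, and 3 of the 10 had 0 reads in 2 libraries. Without IL-1β 1, control 1 or control 2 the median was 0.24, 0.25 or 0.20, and without IL-1β 2 it was 0.60. With the 4 genes of at least 200 reads alone it was 0.09.

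Among the enzymes that make hyaluronan, Has2, the main hyaluronan synthase of many connective tissue cells, had a single circle. It had 8 and 11 reads in control and 0 in each library with IL-1β, under the 20 reads needed for a test. Against 3 reads in each IL-1β library its control mean of 8.05 ± 1.94 CPM was 2.56-fold higher. This ratio takes the control reads as exact and is no lower bound. The share of all hosts with this pattern was not counted, so whether Has2 stands out cannot be told. Has1 and Has3 had no junction reads. The precursor gene Uap1, whose product makes UDP-N-acetylglucosamine, was the most read of the list, with 358 and 400 reads with IL-1β against 396 and 708 in control. Its level was 397 ± 9.69 and 469 ± 195 CPM (SD, n = 2 each), and its log2 change of -0.24 ± 0.31 (adjusted p = 1 in edgeR) was 0.25 without control 2. Ugdh, which makes UDP-glucuronic acid, stood at 131 ± 18.9 and 99.4 ± 49.7 CPM, with a change of 0.39 ± 0.45 (adjusted p = 1 in edgeR) that was -0.06 without control 2. Gfpt1, the first enzyme of the hexosamine pathway, had 49 and 17 reads against 69 and 58, and Pgm3, a later enzyme of it, had 39 and 19 against 33 and 22. Gfpt2 had reads in IL-1β 2 and control 1 only, 14 and 10. The libraries overlapped in each of these 5 precursor genes.

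Among the genes that break hyaluronan down, Cemip2, a membrane-anchored relative of Cemip, had 18 circles. They gave 39 and 105 reads with IL-1β against 101 and 160 in control, or 74.3 ± 44.95 and 111 ± 37.2 CPM (SD, n = 2 each). The log2 change of -0.57 ± 0.54 did not pass edgeR's test (adjusted p = 1). It was -0.06 without IL-1β 1 and -1.38 without IL-1β 2, so each IL-1β library moved it strongly. Gusb, the lysosomal β-glucuronidase, had 57 and 63 reads with IL-1β against 45 and 32 in control, or 62.9 ± 1.05 and 32.5 ± 7.21 CPM, and its groups did not overlap (adjusted p = 0.882 in edgeR). The hyaluronidase genes Hyal1, Hyal2 and Hyal3 had no junction reads.

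Of the receptors, Cd44, the main cell surface receptor for hyaluronan, had 79 and 69 reads with IL-1β against 49 and 79 in control. Its level was 78.0 ± 11.6 and 54.3 ± 18.9 CPM, with both IL-1β libraries above both controls, and its log2 change of 0.52 ± 0.52 did not pass (adjusted p = 1 in edgeR). Without control 1 it was 0.25 and without control 2 it was 0.91. Hmmr, another hyaluronan-binding receptor, had 19 reads in IL-1β 2, 7 in control 1 and 0 in the other 2 libraries. Of 19 genes for proteins that bind or link hyaluronan, 5 were read, and Vcan (versican) had the most, with 14 reads in IL-1β 1 and 7 in control 1. Acan had no junction reads, and the link protein gene Hapln1 had 7, all in control 2.

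**Figure D5:**
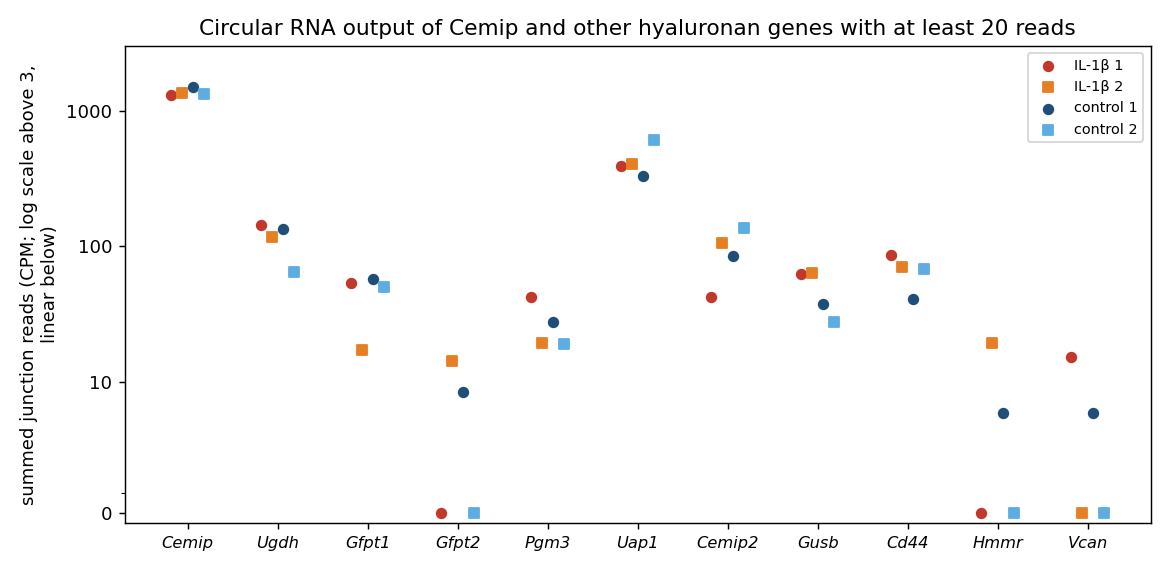
Summed junction reads (CPM; the axis is logarithmic above 3 and linear below) of Cemip and of the 10 other hyaluronan genes with at least 20 reads, with a point for each library. Cemip lies between 1297 and 1483 CPM in all 4 libraries; Gusb and Cd44 have both IL-1β points above both control points and the other 8 genes overlap.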

How the data were processed

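Per the labels' protocols, the RNA was depleted of ribosomal RNA and digested with RNase R, an exonuclease of linear RNA, before directional library preparation. The submitters' processing notes name mm10 and Bowtie2. The circRNA caller with its filters is not given in the sources used here. Per the file headers, the authors deposited whole-number counts of back-splice junction reads, and beside them SRPBM, a depth-scaled signal. From the values, SRPBM is the count divided by 1 constant for each library. GEO's treatment text is identical for all 4 libraries, so the source label decided which were controls.

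Host genes were taken from RefSeq spans (GRCm38.p6): a circle had to lie inside a single coding gene, or inside a single other gene where no coding gene held it. The quasi-likelihood test of edgeR 4.0.16 (R 4.3.3), with TMM factors and no covariate, was applied to all circRNAs or hosts with at least 20 reads, with Benjamini-Hochberg adjustment. Alternatives used DESeq2 1.42.0, other scalings, filters and left-out libraries. Shares used exact binomial intervals and exact permutation tests in scipy 1.17.1. The members and lists were chosen with earlier results of these data known. Every circle of Cemip was counted and drawn, and those named in the text were those read in all 4 libraries and others picked after their values were seen. Other genes named are hyaluronan genes by reads and the 3 hosts closest to Cemip. Log2 changes are printed for items with at least 200 reads, and hyaluronan genes below 20 reads were named after their values were seen.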

Additional observations from a re-analysis of the deposited data

How the results depend on the processing

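Under every alternative run, the summed Cemip output and each Cemip circle stayed short of an adjusted p of 0.05, and so did the other hyaluronan genes. The log2 change of the summed output lay between -0.18 and 0.044 with each library left out in turn and was 0.027 without circRNA.35727. It was -0.30 with scaling by the depth implied by SRPBM, which moved the median of all tested hosts from -0.03 to -0.24. With each library left out, circRNA.35701 lay between -0.13 and 0.19, circRNA.35744 between -0.23 and 0.11, circRNA.35748 between -0.37 and 0.034, circRNA.35751 between -0.45 and 0.17, Ugdh between -0.059 and 1.06 and Uap1 between -0.57 and 0.25. The circle circRNA.35701 was also reversed, to -0.18, by the SRPBM depth. The cause of these reversals was not tested. Same-numbered libraries showed no shared deviation (their deviations correlated at 0.03 over 2208 hosts), which does not tell whether they share a culture or animal. With the replicate number as a block, the log2 change of the summed output was -0.08. Over all tested hosts 0 passed in edgeR, 21 with the block, 12 without a filter on reads and 46 in DESeq2. Over all tested circRNAs the counts were 3, 61, 61 and 101. With 2 libraries a group, changes of Cemip output as small as those inside its 95% interval cannot be told from none.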
